A study of Homo sapiens with 12 samples.

Results

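Ribosome biogenesis factors are the proteins that make ribosomes and are not themselves part of the finished particle. The list examined here held 52 human genes chosen by name for that function. Among them were proteins of the particles that chemically mark ribosomal RNA and subunits of the processome that cuts it. Others assemble the small and the large ribosomal subunit. Of these, 49 had a row in the expression table of 17710 genes, which names each row by its Ensembl gene with the suffix _at, and EMG1, PWP2 and PPAN were not analysed here. The genes were listed by name, with earlier results of these data known.

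Ribosome assembly starts in the nucleolus, where a long precursor RNA is transcribed, folded, modified and cut by many transiently bound proteins and small nucleolar RNAs. The pathway is one of the main costs of growth, and the transcription factor MYC is known to switch on many of its genes by binding the E-box sequence CACGTG near their start. Plasma cells and the myelomas that arise from them make large amounts of protein, and so depend heavily on ribosomes.

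The samples came from MM.1S, an established human multiple myeloma cell line grown in RPMI-1640 with inactivated fetal bovine serum, so that every group was a culture of a single line. There were 4 groups of 3 arrays, from 3 independent experiments. Control cells were untreated. PIM cells received 100 nM PIM447, an inhibitor of all PIM kinases, for 24 h. Pd cells received 200 nM of pomalidomide, which turns the ubiquitin ligase cereblon against lymphoid transcription factors, with 5 nM of the glucocorticoid dexamethasone for 15 h. PIM-Pd cells received all 3 drugs at those doses for 10 h. Treated cells were 74 to 81% viable per the labels. No culture time is stated for the controls, so drug and duration cannot be told apart in any comparison between the groups. The arrays gave 1 log2 value per gene after RMA (robust multi-array average), which brings all arrays to a common distribution. A value is therefore relative to the other RNA of a culture, in which fewer cells of a kind and less RNA per cell cannot be told apart. The arrays measure RNA, and protein levels are not known from them. Markers of plasma cells were not analysed here. Arrays of a group correlated at r of 0.987 to 0.993 across all genes.

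The E-box is common next to the start of these genes, and promoters that hold it are shown here to place it. Promoter windows of RefSeq (GRCh38.p14), each from 250 bases before to 50 bases after a transcript's start, were found for 40 of the 49 factors. CACGTG, which reads the same on both strands, stood in 22 of their 47 windows (46.8%). It stood in 7.26% of all promoter windows and in 8.34% of those of protein-coding genes. Of the 10 factors with the largest fall in PIM-Pd cells, 5 held it (UTP20, DDX21, NOL6, LYAR and GNL3) and 5 had windows without it (DKC1, WDR12, NOP16, BRIX1 and DDX10). The members printed below were thus picked for holding the motif: they are the 5 with the largest fall whose match lay within the printed stretch of 170 bases before to 30 bases after the start, with fibrillarin added as the classic nucleolar marker after its window had been seen. Each is written 5′ to 3′ on the strand of the gene, with the E-box in capitals. UTP20 is on chr12:101279935-101280134 (plus strand), DDX21 on chr10:68956477-68956676 (plus), NOL6 on chr9:33473895-33474094 (minus), LYAR on chr4:4289992-4290191 (minus), GNL3 on chr3:52685862-52686061 (plus) and FBL on chr19:39846350-39846549 (minus).
UTP20: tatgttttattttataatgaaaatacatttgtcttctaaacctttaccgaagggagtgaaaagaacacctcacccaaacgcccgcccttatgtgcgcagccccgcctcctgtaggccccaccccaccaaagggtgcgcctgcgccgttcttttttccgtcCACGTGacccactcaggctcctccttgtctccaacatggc
DDX21: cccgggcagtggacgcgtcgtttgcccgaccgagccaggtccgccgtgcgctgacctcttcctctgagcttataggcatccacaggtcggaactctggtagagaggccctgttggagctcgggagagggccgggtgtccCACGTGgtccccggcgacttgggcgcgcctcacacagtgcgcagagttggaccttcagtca
NOL6: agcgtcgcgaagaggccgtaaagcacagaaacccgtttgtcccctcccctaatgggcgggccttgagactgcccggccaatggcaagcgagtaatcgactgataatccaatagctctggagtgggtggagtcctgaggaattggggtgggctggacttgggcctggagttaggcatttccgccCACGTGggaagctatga
LYAR: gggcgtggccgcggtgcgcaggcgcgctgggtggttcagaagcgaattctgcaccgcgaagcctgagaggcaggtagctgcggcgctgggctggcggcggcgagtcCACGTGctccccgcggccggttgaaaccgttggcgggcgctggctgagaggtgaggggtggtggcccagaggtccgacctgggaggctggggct
GNL3: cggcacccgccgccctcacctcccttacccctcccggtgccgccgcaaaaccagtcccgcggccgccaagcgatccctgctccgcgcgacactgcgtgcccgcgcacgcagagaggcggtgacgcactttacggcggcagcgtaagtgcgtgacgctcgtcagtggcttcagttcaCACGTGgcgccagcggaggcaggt
FBL: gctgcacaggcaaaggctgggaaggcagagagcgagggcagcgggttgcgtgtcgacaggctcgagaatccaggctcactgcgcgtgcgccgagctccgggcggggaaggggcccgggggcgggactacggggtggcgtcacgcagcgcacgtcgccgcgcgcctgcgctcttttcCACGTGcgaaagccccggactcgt

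The match began 10 bases before the start in UTP20, 31 before it in DDX21 and 64 before it in LYAR. In GNL3 and FBL it began at base 7 after the start, and in NOL6 at base 14. DDX21, LYAR and GNL3 have 2 windows each in the table. For these genes the printed window was picked for holding the match, which the other window lacks. The list shared this closeness to the start: 20 of the 24 matches near these factors (83.3%) began within 50 bases of the start, against 765 of 2077 (36.8%) over protein-coding genes. Among the 29 factors with a window that were called lower in PIM-Pd cells, 18 held the E-box (62.1%). Among the 11 that were not called, 3 held it (27.3%). The share over protein-coding genes, also counted by gene, was 10.9%. A variant of the E-box, CACGCG or CGCGTG on the other strand, stood in 23.4% of the factors' windows and 14.3% of those of protein-coding genes. The GC box GGCGGG or CCCGCC stood in 74.5% and 56.2%. By gene, the variant stood in 27.6% of the factors called lower and 27.3% of those not called. For the GC box these shares were 82.8% and 72.7%. Matches on the 2 strands can overlap, a window was counted once per motif, and windows of alternative starts of 1 gene can share a match. These are matches of letters and not measured binding, and no test was made on them.

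**Figure D1:**
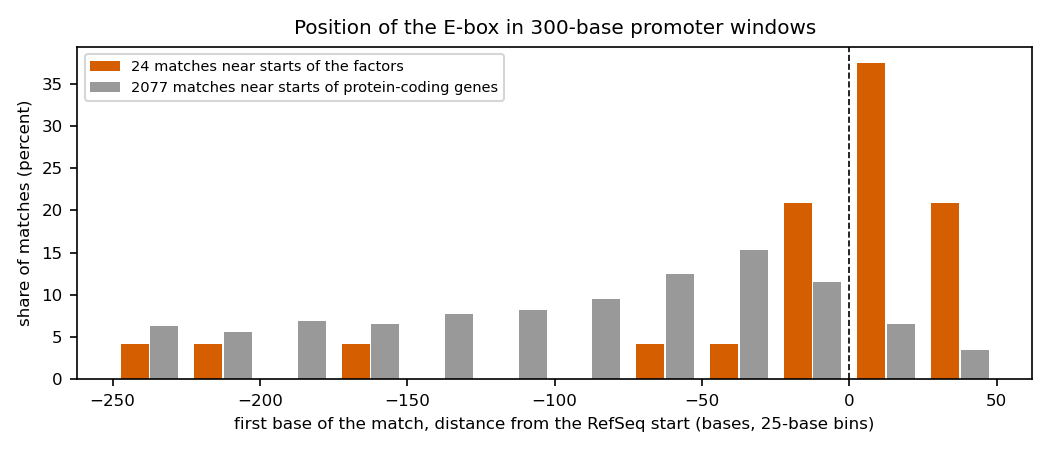
Position of CACGTG matches in promoter windows, as the share of matches (percent) in bins of 25 bases from the RefSeq start (dashed line). Orange bars are the 24 matches near the ribosome biogenesis factors, 20 of which lie within 50 bases of the start, and grey bars are the 2077 matches near starts of protein-coding genes, which spread further upstream.

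The triple combination lowered most of these factors. Against control, 34 of 49 were called lower in PIM-Pd cells and none higher (69.4%), where a call is an adjusted p under 0.05 in limma over all genes. Among all genes of the arrays, 5.02% were called lower and 4.42% higher. The sets differ in brightness: 45 of the 49 factors lay at or above the median level of all genes. The fitted change was below 0 for each of the 49 factors and for 48.3% of all genes, with a median of -0.61 on the log2 scale, a level 0.657 times that of control, against a median of 0.01 over all genes. For 40 factors (81.6%) every PIM-Pd array lay below every control array, as it did for 12.5% of all genes. A fall of at least 2-fold with the same adjusted p was found for 11 factors, against 0.565% of all genes. The 3 arms against control share the same control arrays.

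The calls differed in firmness. With each of the 6 arrays of the comparison left out in turn, 20 of the 34 factors passed the test every time. The count came to 23 without control replicate 1, without control replicate 3 or without PIM-Pd replicate 1, and to 31 at most. PIM-Pd replicate 1 was the lowest array for the list: the median difference of its 49 factors from the control mean was -0.87, against -0.57 and -0.58 in PIM-Pd replicates 2 and 3. The same median was -0.49, -0.30 and -0.39 in the Pd arrays and -0.09, -0.27 and -0.15 in the PIM arrays. The control arrays themselves lay at 0.06, -0.09 and 0.04.

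**Figure D2:**
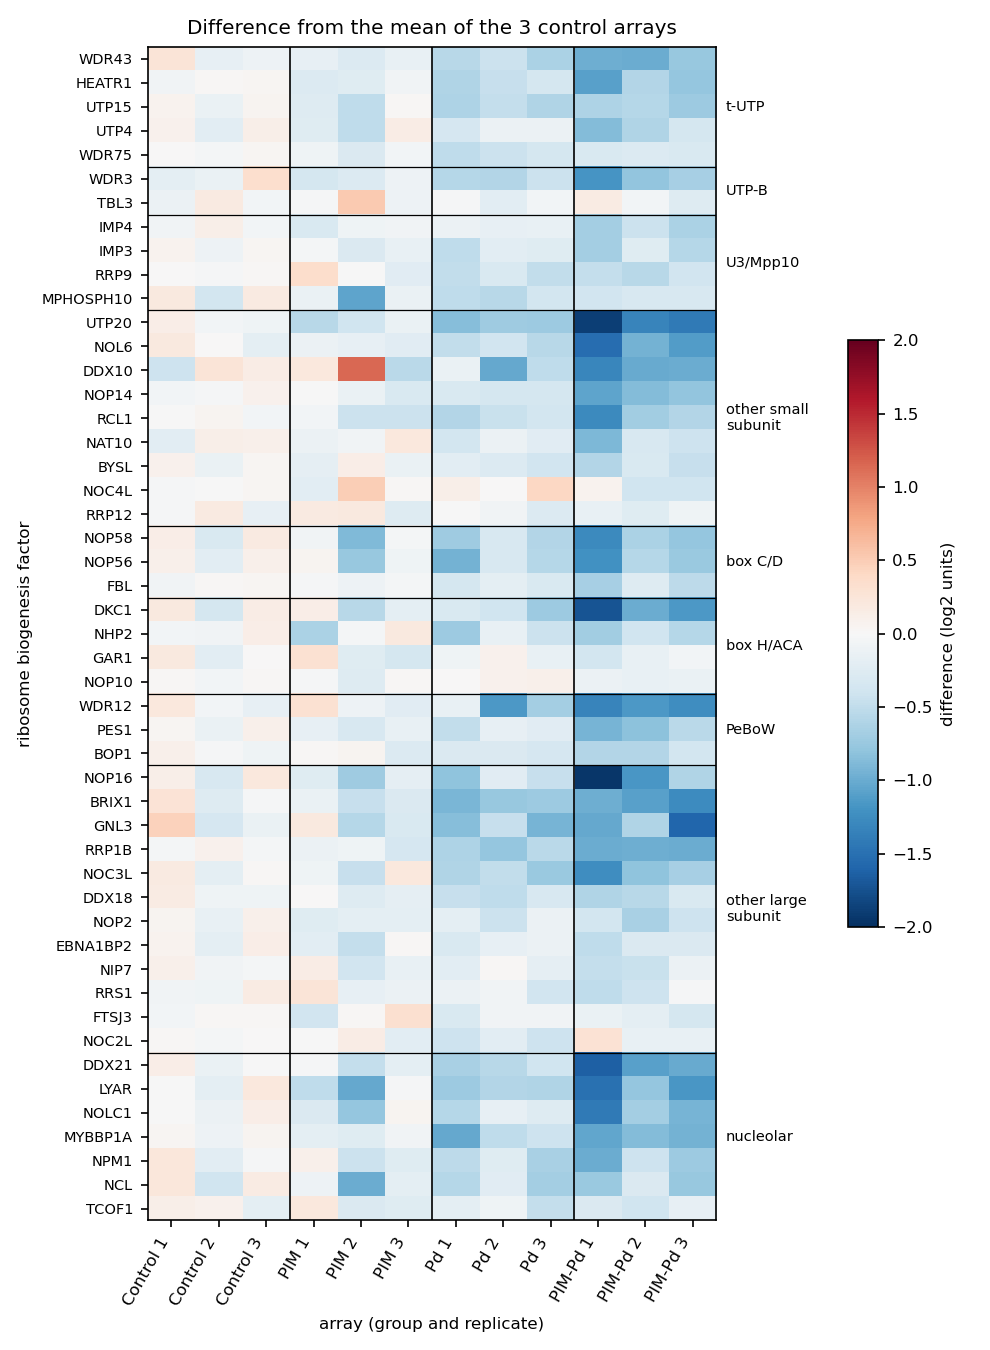
Difference of each of the 49 factors (rows, grouped by role) from the mean of the 3 control arrays, in log2 units, on each of the 12 arrays (columns). Blue is lower and red is higher than control. The PIM-Pd columns are the bluest, and PIM-Pd replicate 1, with a median of -0.87, stands lowest.

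The factors of rRNA transcription and early nucleolar processing held 3 of the 11 called falls of at least 2-fold. The groups of other small-subunit and other large-subunit factors also held 3 each. DDX21 (ENSG00000165732_at), an RNA helicase that acts on both polymerase I transcription and rRNA processing, had log2 levels of 9.28, 9.02 and 9.14 in the control arrays, 9.13, 8.68 and 8.95 with PIM, 8.50, 8.60 and 8.75 with Pd, and 7.51, 8.05 and 8.14 with PIM-Pd. The Pd and PIM-Pd arrays lay below all controls, and the PIM-Pd arrays also below all Pd arrays. Its fall in PIM-Pd was 1.24 on the log2 scale (SE 0.16), or 2.37-fold, with an adjusted p of 0.000267.

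LYAR (ENSG00000145220_at), a nucleolar protein of growing cells, read 7.43, 7.24 and 7.64 in control, 6.93, 6.41 and 7.41 with PIM, 6.71, 6.85 and 6.83 with Pd and 5.95, 6.66 and 6.27 with PIM-Pd, a 2.21-fold fall in the last (adjusted p = 0.0037). NOLC1, a chaperone of small nucleolar ribonucleoproteins, went from 8.82, 8.70 and 8.95 in control to 7.40, 8.14 and 7.90 in PIM-Pd cells, 2.01-fold lower (adjusted p = 0.00563). MYBBP1A (ENSG00000132382_at), which binds the polymerase I machinery and nucleolar RNA, read 7.10, 6.97 and 7.12 in control, 6.04, 6.56 and 6.65 with Pd and 6.03, 6.20 and 6.11 with PIM-Pd. In all 3 genes the PIM-Pd arrays did not overlap the controls. The fall of MYBBP1A was 0.95 on the log2 scale in PIM-Pd cells (adjusted p = 0.000703).

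The genes of the abundant nucleolar proteins gave a less even picture. NPM1 (ENSG00000181163_at, nucleophosmin, a histone and ribosome chaperone) stood at 9.18, 8.73 and 8.92 in control and 7.95, 8.53 and 8.22 with PIM-Pd. The arrays did not overlap, and the 1.63-fold fall passed the test (log2 SE 0.18, adjusted p = 0.0186), though not without control replicate 1 or 3 or PIM-Pd replicate 1 or 3, where the adjusted p reached 0.0924. NCL (ENSG00000115053_at, nucleolin, which binds nascent precursor RNA) read 10.04, 9.42 and 9.98 in control, 9.72, 8.82 and 9.61 with PIM, 9.25, 9.58 and 9.14 with Pd and 9.08, 9.53 and 9.06 with PIM-Pd. Control replicate 2 lay below PIM-Pd replicate 2, so that the groups overlapped. The change of -0.59 in PIM-Pd (95% interval -1.08 to -0.10) had an adjusted p of 0.14, and of 0.0642 to 0.378 with an array left out. TCOF1 (treacle, a polymerase I cofactor) changed by -0.28 (adjusted p = 0.333). Of the 7 genes in this role, 5 were called lower, with a median change of -0.95.

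Box C/D ribonucleoproteins place methyl groups on rRNA, and all 3 genes of their proteins on the list were called lower in PIM-Pd cells. FBL (ENSG00000105202_at), the methyltransferase fibrillarin, had levels of 6.95, 7.04 and 7.05 in control, 6.98, 6.92 and 6.97 with PIM, 6.66, 6.81 and 6.71 with Pd and 6.35, 6.75 and 6.48 with PIM-Pd. Its fall was the smallest of the 3, at 1.40-fold (log2 SE 0.11, adjusted p = 0.0135), and it missed the threshold without PIM-Pd replicate 1 (adjusted p = 0.0628) or control replicate 3 (0.056). The genes of the scaffold proteins NOP56 and NOP58 fell by 0.84 and 0.90 on the log2 scale (adjusted p = 0.0248 and 0.0189). Leaving out control replicate 1 or 3 or PIM-Pd replicate 1 ended either call, and for NOP56 PIM-Pd replicate 3 did too, with adjusted p up to 0.107 for NOP56 and 0.0843 for NOP58.

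Box H/ACA ribonucleoproteins convert uridine to pseudouridine, and among the 4 genes of their proteins 1 was called. DKC1 (ENSG00000130826_at, dyskerin, the pseudouridine synthase) went from 8.06, 7.51 and 8.01 in control, through 7.99, 7.30 and 7.66 with PIM and 7.55, 7.46 and 7.14 with Pd, to 6.12, 6.87 and 6.71 with PIM-Pd. Its PIM-Pd arrays lay below every other array of the gene, and the fall against control was 2.44-fold (log2 SE 0.21, adjusted p = 0.00149). The structural partners moved less. NHP2 changed by -0.55 (adjusted p = 0.0924, called with the replicate block), GAR1 by -0.19 (0.628) and NOP10 by -0.13 (95% interval -0.35 to 0.09, adjusted p = 0.573), the levels of NOP10 being 10.35, 10.26 and 10.35 in control and 10.21, 10.16 and 10.19 in PIM-Pd cells.

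The small-subunit processome is the large assembly that folds and cuts the small-subunit end of the precursor, and its t-UTP proteins are the first to bind. Of 5 t-UTP genes 4 were called lower in PIM-Pd cells. WDR43 read 9.27, 8.85 and 8.90 in control, 8.45, 8.59 and 8.38 with Pd and 8.04, 8.03 and 8.25 with PIM-Pd, a fall of 0.91 (adjusted p = 0.000397). HEATR1, also needed for polymerase I transcription, fell by 0.81 (adjusted p = 0.00117), and UTP15 by 0.63 (0.00568). UTP4 fell by 0.61 (adjusted p = 0.036), a call that 4 of the 6 left-out arrays ended (control replicates 1 and 3 and PIM-Pd replicates 1 and 2, adjusted p up to 0.148). The exception was WDR75, at 8.81, 8.76 and 8.84 in control and 8.49, 8.53 and 8.49 with PIM-Pd: the arrays did not overlap, yet the change of -0.30 had an adjusted p of 0.0942.

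In the UTP-B module WDR3 was called lower, by 0.88 on the log2 scale (adjusted p = 0.00271), and TBL3 was among the 3 flattest factors, at -0.05 (95% interval -0.40 to 0.29, adjusted p = 0.923). The levels of TBL3 were 6.15, 6.44 and 6.21 in control and 6.43, 6.21 and 6.0 in PIM-Pd cells, which overlap. Around the U3 small nucleolar RNA, IMP4 fell by 0.58 (adjusted p = 0.00427), IMP3 by 0.50 (0.0275) and the U3 protein RRP9 by 0.47 (0.0393). IMP3 lost its call without control replicate 1 or 3 or PIM-Pd replicate 1 or 3 (adjusted p up to 0.112), and RRP9, a dim gene on these arrays, lost it with each of the 6 left out (0.0607 to 0.115). MPHOSPH10, which recruits IMP3 and IMP4, changed by -0.34 (adjusted p = 0.428).

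UTP20 (ENSG00000120800_at), a very large scaffold of the small-subunit precursor, fell more than any other factor. Its levels were 7.34, 7.15 and 7.12 in control, 6.65, 6.80 and 7.07 with PIM, 6.35, 6.49 and 6.47 with Pd and 5.31, 5.89 and 5.79 with PIM-Pd. Each treated group lay wholly below control, the Pd arrays below all PIM arrays, and the PIM-Pd arrays below all others. The fall in PIM-Pd cells was 1.54 (SE 0.15), or 2.90-fold, with an adjusted p of 3.1e-05.

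NOL6 (ENSG00000165271_at), which joins the same precursor early, read 6.77, 6.58 and 6.38 in control, 6.46, 6.42 and 6.35 with PIM, 6.08, 6.19 and 6.02 with Pd and 5.05, 5.63 and 5.46 with PIM-Pd (2.29-fold lower, adjusted p = 0.000138). NOP14 was steady between replicates at 7.40, 7.42 and 7.54 in control and 6.40, 6.59 and 6.67 with PIM-Pd, a fall of 0.90 (SE 0.11, adjusted p = 0.00017). The RNA helicase DDX10 (ENSG00000178105_at) varied most within groups, with 4.92, 5.59 and 5.47 in control, 5.55, 6.48 and 4.78 with PIM, 5.19, 4.30 and 4.82 with Pd and 4.02, 4.32 and 4.33 with PIM-Pd. Its 2.15-fold fall (log2 SE 0.33, adjusted p = 0.047) held when control replicate 1 was left out and was lost with each of the other 5 (adjusted p up to 0.159). Of the 9 genes of this role 7 were called lower. RCL1, an enzyme-like factor of the early cuts, fell by 0.85 (adjusted p = 0.00375), while BYSL (bystin) and the rRNA acetyltransferase NAT10 fell by 0.46 (0.0259) and 0.54 (0.0414). Both of these calls were lost in 4 of the 6 leave-outs: PIM-Pd replicates 1 and 3 and control replicate 3 for both, with control replicate 1 for BYSL and 2 for NAT10, and adjusted p up to 0.102 and 0.171. NOC4L and RRP12 were not called, with changes of -0.24 (adjusted p = 0.526) and -0.16 (0.623).

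**Figure D3:**
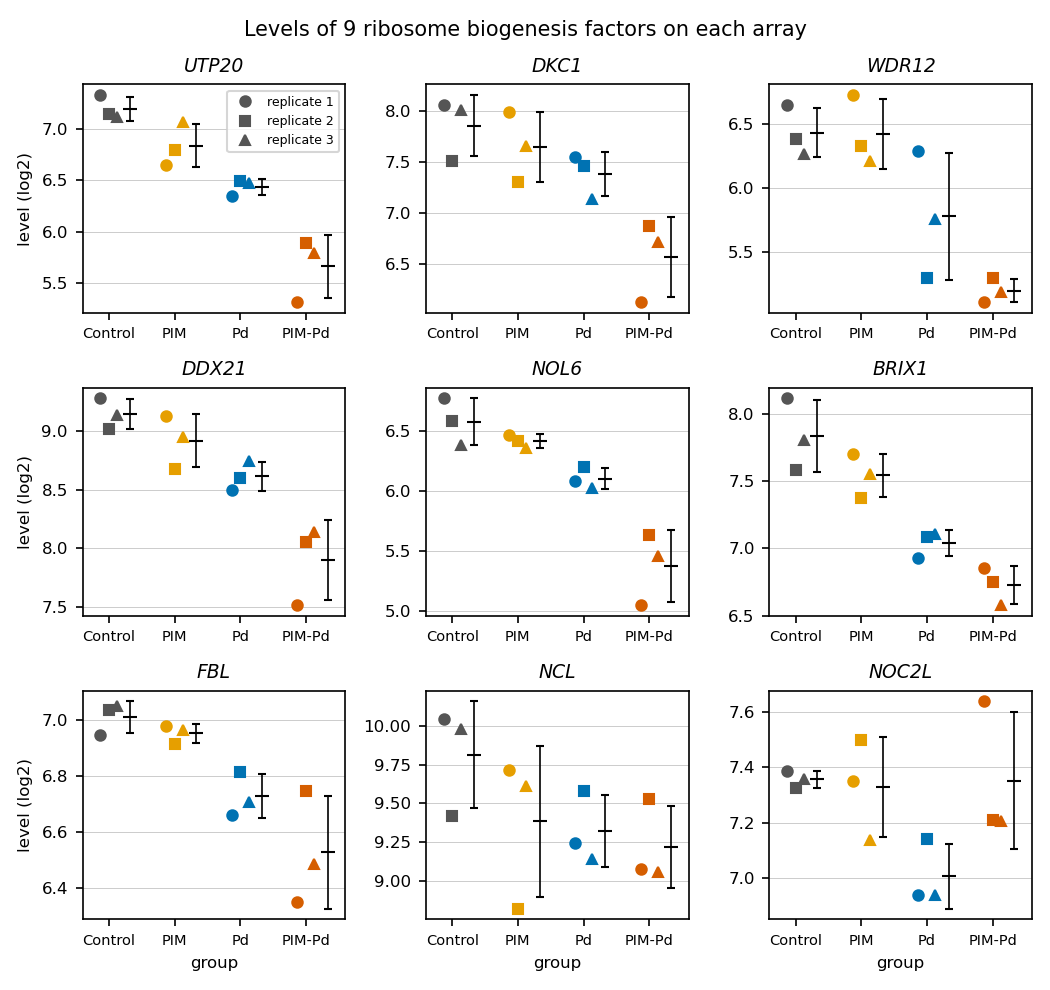
Log2 level of 9 named factors on each array, by group, with replicate 1 as a circle, 2 as a square and 3 as a triangle. The bar beside the points is the mean ± SD of 3 arrays, and each panel has its own level axis. UTP20, DKC1, DDX21, NOL6, BRIX1 and, by a narrow margin, WDR12 lie below all other arrays in PIM-Pd cells, whereas NCL and NOC2L overlap control.

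On the large-subunit side, the genes of the PeBoW complex (PES1, BOP1 and WDR12) were each called lower. The complex is needed to process the precursor of the large-subunit RNA. WDR12 (ENSG00000138442_at) read 6.65, 6.39 and 6.27 in control, 6.73, 6.33 and 6.21 with PIM, 6.29, 5.29 and 5.76 with Pd and 5.11, 5.29 and 5.19 with PIM-Pd. The Pd arrays were widely spread and reached from the control range down to the PIM-Pd range. WDR12 fell 2.36-fold in PIM-Pd cells (log2 SE 0.20, adjusted p = 0.00143), PES1 1.70-fold (adjusted p = 0.00177) and BOP1 1.42-fold (0.0112, or 0.0554 without control replicate 1).

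Among the other 12 large-subunit genes 7 were called lower. BRIX1 (ENSG00000113460_at), an assembly factor of the early large subunit, read 8.12, 7.58 and 7.81 in control, 7.70, 7.38 and 7.55 with PIM, 6.93, 7.08 and 7.11 with Pd and 6.86, 6.75 and 6.58 with PIM-Pd. Both Pd-containing groups lay below every control and PIM array, and the fall in PIM-Pd was 2.16-fold (log2 SE 0.14, adjusted p = 0.000207). RRP1B (ENSG00000160208_at) varied little between replicates, at 8.15, 8.27 and 8.14 in control, 7.58, 7.42 and 7.65 with Pd and 7.19, 7.22 and 7.20 with PIM-Pd, a fall of 0.99 (SE 0.11, adjusted p = 6.17e-05).

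NOP16 (ENSG00000048162_at) levels were 7.69, 7.24 and 7.77 in control and 5.63, 6.40 and 6.97 with PIM-Pd, wide apart within the treated group (2.35-fold lower, log2 SE 0.27, adjusted p = 0.00874). GNL3 (ENSG00000163938_at, nucleostemin, a GTPase of proliferating cells) read 8.76, 7.95 and 8.16 in control, 7.44, 7.83 and 7.36 with Pd and 7.27, 7.70 and 6.71 with PIM-Pd. It fell 2.09-fold in PIM-Pd (log2 SE 0.26, adjusted p = 0.0159), and missed the threshold without control replicate 1 (0.0832) or PIM-Pd replicate 3 (0.0777). NOC3L fell by 0.91 (adjusted p = 0.00453), the helicase DDX18 by 0.49 (0.0209) and the rRNA methyltransferase NOP2 by 0.48 (0.0204). DDX18 and NOP2 each lost the call in 3 of the 6 leave-outs, control replicate 1 and PIM-Pd replicate 2 in both, PIM-Pd replicate 1 in DDX18 and control replicate 3 in NOP2, with adjusted p up to 0.102 and 0.0912.

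NOC2L (ENSG00000188976_at), the partner of NOC3L in nucleolar export of the large subunit, did not share its fall. The levels of NOC2L were 7.39, 7.32 and 7.36 in control, 7.35, 7.50 and 7.14 with PIM, 6.94, 7.14 and 6.94 with Pd and 7.64, 7.21 and 7.21 with PIM-Pd. PIM-Pd replicate 1, the lowest array for the list, was here the highest, and the change of the group was -0.0043 (95% interval -0.29 to 0.28, adjusted p = 0.994). EBNA1BP2, NIP7, RRS1 and FTSJ3 changed by -0.36, -0.35, -0.32 and -0.23 and were not called, with adjusted p of 0.135, 0.175, 0.257 and 0.462.

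**Figure D4:**
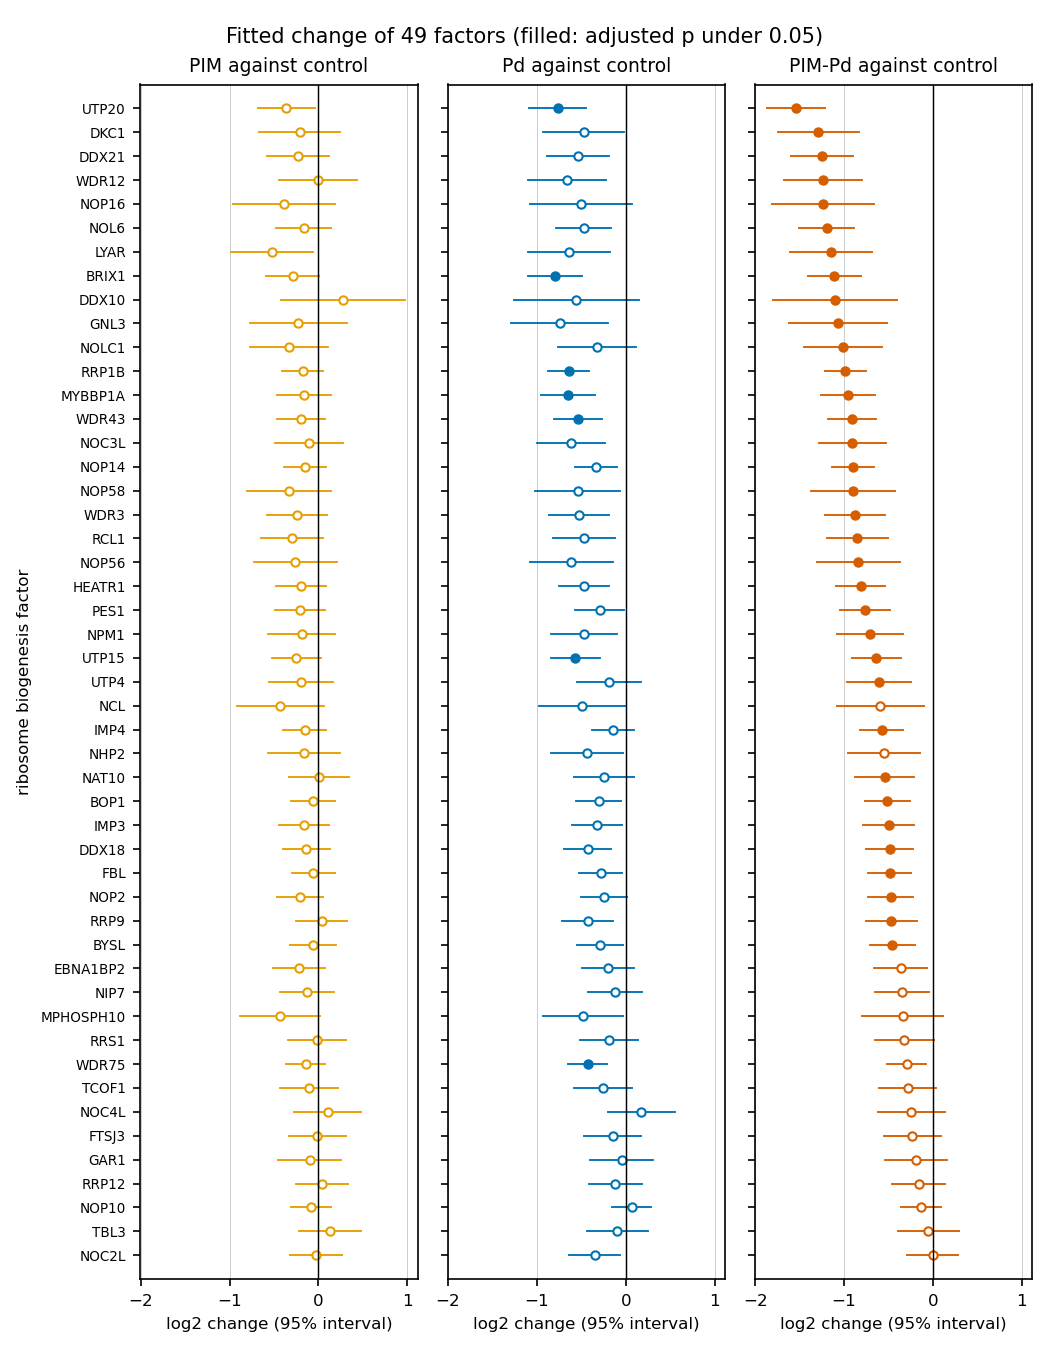
Fitted log2 change of each of the 49 factors against control in PIM, Pd and PIM-Pd cells, with 95% intervals from limma, ordered by the change in PIM-Pd. Filled points have an adjusted p under 0.05: 0 in PIM, 7 in Pd and 34 in PIM-Pd.

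Pomalidomide with dexamethasone alone lowered a smaller number of the factors. In Pd cells 7 of 49 were called lower than control and none higher (14.3%), against 1.94% of all genes lower and 3.48% higher. This count was unsteady. With a left-out array it ran from 3 to 6. It was 3 without control replicate 1, and 4 without Pd replicate 1, Pd replicate 3 or control replicate 3. It rose to 17 with the other groups left out of the fit and to 18 with array weights. With the replicate number as a block 10 were called, WDR12, HEATR1 and WDR3 in addition to the 7. The count over all genes in either direction moved too, from 960 to 497 to 720 with a left-out array. Over all alternatives the all-gene count reached 1516 at most. At an unadjusted p under 0.05, 32 factors were lower (65.3%), against 7.79% of all genes. The same number had every Pd array below every control array, against 12.3% of all genes. The median change was -0.43, against -0.01 over all genes.

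BRIX1 and UTP20 led in this arm, with falls of 0.80 (SE 0.14, adjusted p = 0.00344) and 0.76 (SE 0.15, 0.0074). MYBBP1A fell by 0.65 (adjusted p = 0.0145) and RRP1B by 0.64 (0.00252). The other 3 were t-UTP genes: UTP15 fell by 0.57 (adjusted p = 0.0185), WDR43 by 0.54 (0.0215) and WDR75 by 0.43 (0.0242). UTP15 (ENSG00000164338_at) read 6.53, 6.33 and 6.52 in control, 5.84, 5.98 and 5.86 with Pd and 5.84, 5.88 and 5.74 with PIM-Pd, so that both treated groups lay at one level. WDR75 read 8.30, 8.38 and 8.45 with Pd, below its PIM-Pd levels, though the difference between these arms of 0.13 did not pass (adjusted p = 0.766).

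BRIX1, UTP20 and RRP1B passed with any array left out. The other 4 calls were less firm. WDR75 failed with each of the 6 arrays left out (adjusted p of 0.0536 to 0.111). Leaving out control replicate 1 or Pd replicate 1 ended the calls of WDR43, MYBBP1A and UTP15, as did leaving out Pd replicate 3 for WDR43 and UTP15 and control replicate 3 for MYBBP1A and UTP15, with adjusted p up to 0.114, 0.0603 and 0.0822. HEATR1, at -0.47, had an adjusted p of 0.0501. NOC4L and NOP10 had fitted changes above 0 in Pd cells, at 0.17 and 0.07 (adjusted p = 0.729 and 0.854).

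With PIM447 alone, no factor passed the limma test in either direction, nor did any of the 17710 genes (0%). At an unadjusted p under 0.05, 2 factors were lower (4.08%), UTP20 and LYAR, with changes of -0.36 and -0.52 (-0.27 for LYAR without PIM replicate 2), and none was higher, against 2.94% of all genes lower and 3.26% higher. The fitted change was below 0 for 43 of the 49 factors, against 47.4% of all genes, with a median of -0.16 against 0.01. That median ran from -0.21 to -0.11 with an array left out, and was -0.11 without PIM replicate 2. For 8 factors (16.3%) the PIM arrays lay below all controls, against 4.99% of all genes. The highest change was that of DDX10, at 0.27 (SE 0.33, adjusted p = 0.927), with PIM replicate 2 at 6.48, and without that array it was -0.16. WDR12 showed almost no difference from control after PIM447, at -0.01 (95% interval -0.45 to 0.43).

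Adding PIM447 to Pd was read from PIM-Pd against Pd, where the triple combination had acted for a shorter time. No factor was called by limma in either direction, and 0.0734% of all genes were called lower and 0.00565% higher. At an unadjusted p under 0.05, 20 factors were lower (40.8%, against 4.66% of all genes) and 1 was higher (3.91% of all genes). That was NOC2L, at 0.35 (95% interval 0.06 to 0.63, adjusted p = 0.49), which came to 0.20 without PIM-Pd replicate 1. In 18 factors (36.7%) all PIM-Pd arrays lay below all Pd arrays, against 7.79% of all genes. NOC2L and WDR75 were the 2 with the opposite order, seen in 6.66% of all genes. The median change was -0.29, against 0.00 over all genes, and came to -0.17 without PIM-Pd replicate 1.

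The largest fitted differences in that comparison were those of DKC1 at -0.81 (95% interval -1.27 to -0.36, adjusted p = 0.237), UTP20 at -0.77 (-1.10 to -0.45, 0.0806), NOP16 at -0.73 (adjusted p = 0.459, or -0.38 without PIM-Pd replicate 1), NOL6 at -0.72 (-1.03 to -0.41, 0.089) and DDX21 at -0.71 (adjusted p = 0.155). The smallest adjusted p was 0.0806, for UTP20 and for NOP14, whose difference was -0.57. BRIX1 and UTP15, which were called in both arms against control, differed between them by -0.31 and -0.07 (adjusted p = 0.564 and 0.926).

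Adding Pd to PIM447 was read from PIM-Pd against PIM, where the triple combination had acted for 10 h and PIM447 alone for 24 h. In PIM-Pd cells 19 of 49 factors were called lower than in PIM cells and none higher (38.8%), against 2.71% of all genes lower and 2.95% higher. All PIM-Pd arrays lay below all PIM arrays for 26 factors (53.1%, against 9.35% of all genes), and the median change was -0.51. The count depended on PIM-Pd replicate 1, without which it was 11 and the median -0.38, and it was 10 with the other groups left out of the fit. Of the 19, 11 passed with any array left out.

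DDX10 led by size, at -1.38 (SE 0.33, adjusted p = 0.0217), and lost the call without PIM replicate 1 or 2 or PIM-Pd replicate 1 or 3 (adjusted p up to 0.0689). It came to -0.94 without PIM replicate 2, the array at 6.48. WDR12 fell by 1.23 (SE 0.20, adjusted p = 0.00219), UTP20 by 1.18 (SE 0.15, 0.000316), DKC1 by 1.08 (SE 0.21, 0.00767) and NOL6 by 1.03 (SE 0.14, 0.000572). All 3 PeBoW genes were called, although BOP1 and PES1 each lost the call in 4 of the 6 leave-outs, PIM replicate 1 and PIM-Pd replicates 1 and 2 in both, PIM replicate 2 in BOP1 and 3 in PES1 (adjusted p up to 0.118 and 0.0756). In the H/ACA group DKC1 was again the called member. NHP2 changed by -0.39 (adjusted p = 0.321, or 0.0484 without PIM replicate 1, where the change was -0.63), GAR1 by -0.09 and NOP10 by -0.05. With the replicate block GNL3 and NAT10 were called as well, 21 factors in all.

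Whether the combination departed from the sum of its parts was tested as PIM-Pd minus PIM minus Pd plus control on the log2 scale, for these arms with their unequal times. No factor departed by limma's adjusted p, where 0.0113% of all genes did on the lower side and 0.00565% on the higher, and 2 did at an unadjusted p under 0.05 (4.08%, against 3.34% of all genes). These were NOL6, at -0.56 (95% interval -0.99 to -0.12, adjusted p = 0.813), and NOP14, at -0.42 (adjusted p = 0.816). The median over the 49 was -0.11, against -0.01 over all genes, and was -0.17 without PIM replicate 2 and -0.07 without PIM-Pd replicate 1. The median SE of 0.21 means that only large departures could have been seen with 3 arrays a group.

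**Figure D5:**
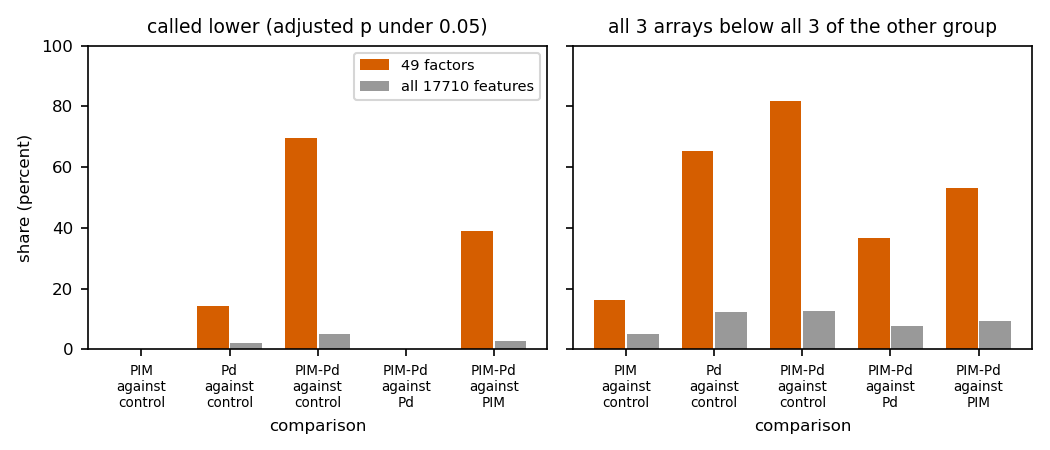
Share (percent) of the 49 ribosome biogenesis factors (orange) and of all 17710 genes (grey) in each of 5 comparisons. The left panel gives those called lower by limma (69.4% of the factors against 5.02% of genes in PIM-Pd against control, and 0% of the factors in PIM against control and PIM-Pd against Pd), and the right panel those with all 3 arrays below all 3 of the other group.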

How the data were processed

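RNA of MM.1S cells was hybridised by the study to Clariom S arrays. The authors deposited log2 values, 1 per Ensembl gene, normalized by RMA with oligo 1.44.0 in R 3.5.0 (per the labels). RMA values have no true zero between genes, so levels were compared within a gene only. The labels name AllPrep and the series text Trizol with RNeasy for RNA extraction. Here all 12 arrays were fitted in limma 3.58.1 (R 4.3.3) with 4 group means and no covariate, and p-values were adjusted by Benjamini-Hochberg over 17710 genes (threshold 0.05). The study's own tool, SAM, was not used. The script was tested on simulated data. The members and lists were chosen with earlier results of these data known, and the members enter no test of the list as a whole.

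The values of the 19 factors named by a written rule (largest called changes, FBL, NCL, NPM1, and the 3 smallest changes) were supplemented by other members named by role after their values were seen. A further list of ribosome genes and the cell markers could not be matched to identifiers and were not analysed here. The labels call the replicates pairs from independent experiments: same-numbered arrays of different groups had deviations correlated at -0.10 to 0.30, over 0.1 in 9 of 18 pairs. The number of arrays limits the precision. Array weights, centring, quantile normalization, a filter on dim genes, a trended robust prior, fits on the compared groups alone, a replicate block and each array left out were the alternatives tried.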

Additional observations from a re-analysis of the deposited data

How the results depend on the processing

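With the replicate number as a block (replicate block), 35 factors were called in PIM-Pd against control (34 without it, NHP2 being added), 10 in Pd against control (WDR12, HEATR1 and WDR3 added to the 7), 21 in PIM-Pd against PIM (GNL3 and NAT10 added to the 19) and none elsewhere, and no call was lost. Requiring a 2-fold change left 11, 0 and 6 factors in these comparisons, all lower. Of all 17710 genes, 100, 29 and 52 were called lower by that rule. With the compared groups alone in the fit the Pd count was 17 and that of PIM-Pd against PIM 10, and array weights gave 18 for Pd. Leaving out 1 array gave 3 to 6 factors in Pd, 23 to 31 in PIM-Pd and 11 to 18 in PIM-Pd against PIM. Among all genes, in either direction, the counts were then 497 to 720, 1096 to 1435 and 648 to 901. The median change ranged from -0.34 to -0.17 in PIM-Pd against Pd and from -0.56 to -0.38 in PIM-Pd against PIM, both smallest without PIM-Pd replicate 1. Over the 26 comparisons of named factors, 307 of 338 alternatives kept direction and call and 25 lost the call. The other 6 reversed near 0: NOC2L in PIM-Pd against control came to 0.028 after quantile normalization and ranged from -0.15 to 0.07 with an array left out (0.011 without control replicate 1, 0.066 without PIM-Pd replicate 2 and 0.069 without replicate 3), and TBL3 ranged from -0.16 to 0.05 (0.034 without control replicate 2, 0.054 without PIM-Pd replicate 3). The cause was not tested. Of all genes, 960 were called in either direction in Pd against control (191 to 1516 over the alternatives), 1671 in PIM-Pd against control (255 to 1934), 14 in PIM-Pd against Pd (1 to 26), 1003 in PIM-Pd against PIM (173 to 1262) and 3 for the departure from additivity (0 to 3). The settings meant for a further list of ribosome genes were not run. NOP2, RRP9, RRP12 and FTSJ3 lay under the median level of all genes, where signal over background limits the values.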
